A study of Rattus norvegicus with 7 samples.

Results

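The genes described here carry TGF-beta, activin and BMP signals from ligand to target gene, measured in the rat kidney epithelial line NRK-52E, sampled 48 h after siRNA was given. The 40 members were taken by gene symbol in the platform annotation: 10 ligands, 3 latent binding proteins, 4 extracellular antagonists, 8 receptors, 7 Smads, 2 nuclear corepressors, 4 Id genes and 2 Ccn genes. Of these, 39 were found with 1 symbol on the arrays, as 69 probe sets, of 14217 genes in all, and the receptor Tgfbr2 is not analysed here. A probe set is a group of short oligonucleotides on the array that together report 1 signal, and 56 member probe sets of 36 genes were bright enough to test, of 18625 tested in all. All cells were of this 1 line, grown in medium with 10% serum and given siRNA by lipofection at 100 pmol per ml. Cultures given the siRNA named Adamts16-3488 are on 2 arrays, cultures given Adamts16-2600 on 2, and cultures given a scrambled siRNA on 3, with 1 independent culture per array per the series design. The study is about Adamts16, a secreted metalloprotease, in inherited hypertension, and these arrays ask what changes in kidney cells when its transcript is targeted.

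Ligands of this family are secreted as dimers, and the TGF-betas are held in the matrix in a latent form by binding proteins until they are released. A released ligand brings type I and type II serine/threonine kinase receptors together, and the type I receptor phosphorylates receptor Smads, which enter the nucleus with Smad4 and bind target genes. Smad2 and Smad3 carry TGF-beta and activin signals, Smad1 and Smad5 carry BMP signals, and Smad6 and Smad7 inhibit the pathway. In the kidney, TGF-beta is best known for driving matrix production and fibrosis, and BMP signals for tubule development and repair.

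The siRNA strands define the groups and are shown with bases 2 to 8 of the antisense strand, the seed, in capitals. They are copied from the labels as DNA letters without their overhangs, and the 3 seeds all differ.
scrambled antisense: aTTACCGAgcacattggagg
Adamts16-2600 antisense: tTGCGCACagaaatatagg
Adamts16-3488 antisense: tTTCCGGAgacgtacttct

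Different members were called with each siRNA. Under the deposited scaling, the cells given siRNA 3488 had higher signals of the BMP and TGF-beta target genes Id1, Id2, Ccn1 and Ccn2. The called probe sets of these target genes lie among the brightest 10% of those tested, of which 37.4% were called higher. The secreted antagonist Fstl1 and the latent binding protein Ltbp1 were also higher, and Inhbb, which encodes a subunit of activin B, was lower. After quantile normalization Ccn2 and Id1 were at -0.05 and -0.03. Of the genes named here, only Fstl1 and Inhbb were then still called with siRNA 3488. The cells given siRNA 2600 had a higher signal of Inhba, which encodes the subunit of activin A, and a lower signal of the receptor Amhr2. No member was called when both siRNAs were set together against the scrambled control in a fit of 2 groups. That fit leaves differences between the siRNAs in the spread. From the mean of both siRNA effects in the fit of 3 groups, 6 member probe sets were called, 10.7% beside 7.4% of all. The differences between the siRNAs of Inhbb, Id1, Id2, Ccn1 and Ltbp1 were not called. A probe set was called where limma's adjusted p, corrected over all tested probe sets by the Benjamini-Hochberg method, was under 0.05. Changes are differences of log2 signal ± standard error of the fit, signals are in arbitrary units, and the 3 groups share 1 estimate of the spread in the single-siRNA comparisons. These are bulk cultures, so fewer cells of a type and less RNA per cell cannot be told apart.

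The array medians lay between 126 and 139.6. Across the tested probe sets, siRNA 2600 replicate 1 correlated with scrambled replicates 1 and 2 at r = 0.985 and 0.984, above its r of 0.980 with the other culture of its own group, and each result that changes without it is given both ways. The probe set for Adamts16 read 12.1 and 40.4 with siRNA 3488, 21.4 and 2.42 with siRNA 2600, against 8.68, 7.18 and 18.9 in the control, all below the signal filter, so the knockdown cannot be read from these arrays. Of 11 tubule epithelium markers, 10 were on the arrays, and Krt8 was bright on all 7 arrays at 5698 to 7147. Cdh1, Epcam, Krt18 and Cdh16 read at most 32.4, so these defining epithelial markers were near the floor. The summed tubule signal was 7145 to 7812 with siRNA 3488, 6493 to 6516 with siRNA 2600 and 6199 to 6848 in the control. Most of it came from Krt8, whose change with siRNA 3488 was not called (0.18 ± 0.07, limma adjusted p 0.0949). With that siRNA, Lrp2 was at -0.01 ± 0.34 and Aqp1 at 0.38 ± 0.17 and -0.66 ± 0.30 on its probe sets, none called. The summed signal of 8 of 8 fibroblast markers was 28398 to 32350 with siRNA 3488, 22624 to 24199 with siRNA 2600 and 21967 to 22703 in the control, most of it from Col3a1, while Pdgfra, Lum and Dcn read at most 68.5. Their part in the results was not tested. The sums of the endothelial markers (5 of 6 on the arrays) and of the leukocyte markers (5 of 5) overlapped between the groups. Of the endothelial markers, Pecam1 and Kdr read at most 37.6, Vwf at most 63.8 and Flt1 at most 90.6. Tek read 182 to 271 and passed the signal filter. The leukocyte sum is mostly Cd14, and within that list the lysosomal macrophage marker Cd68 read 365 and 363 with siRNA 3488, 192 and 225 with siRNA 2600, against 208, 236 and 246 in the control. Cd68 was called higher with siRNA 3488 than in the control (0.67 ± 0.14, limma adjusted p 0.0141) and than with siRNA 2600 (0.81 ± 0.16, 0.0211), and its part in the results was not tested either.

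With siRNA 3488 against the control, 8 of 56 member probe sets were called, 14.3%, against 15.6% of all tested probe sets, so the share of called members was near the background. The fibroblast and tubule marker sums, mostly Col3a1 and Krt8, and Cd68 were also highest with siRNA 3488. The directions were 7 higher (12.5% against 6.89% of all) and 1 lower (1.79% against 8.74%). The arrays of the groups did not overlap for 29 of 56, 51.8% against 50.3% of all. With siRNA 2600, 2 of 56 were called, 3.57% against 1.03%, and 25 did not overlap, 44.6% against 34%. With both siRNAs, 0 of 56 were called against 0.145%, with 12 (21.4%, beside 17.8% of all) at an unadjusted p under 0.05, and 12 did not overlap, 21.4% against 17.7%. Between the siRNAs, 7 of 56 were called, 12.5% against 6.01%, and 31 did not overlap, 55.4% against 49.6%. The median log2 change of the 56 was 0.06 with siRNA 3488 (all tested probe sets -0.06), -0.03 with siRNA 2600 (all -0.02) and 0.05 with both (all -0.05).

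**Figure D1:**
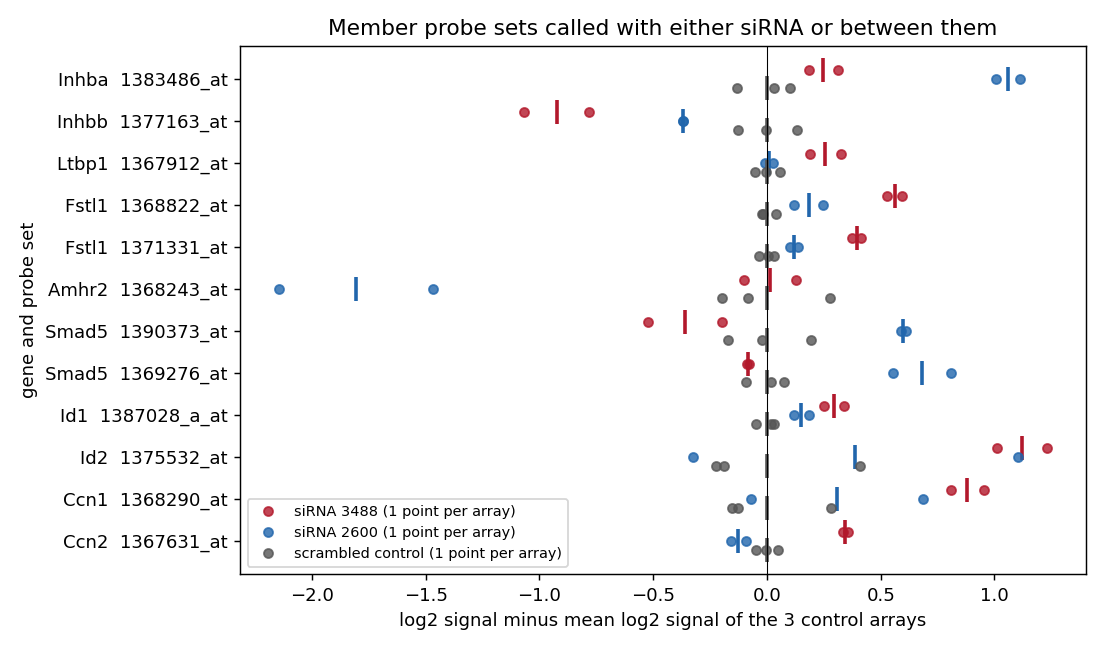
Log2 signal of each array minus the mean log2 signal of the 3 control arrays, for the 12 member probe sets called with either siRNA or between the siRNAs. Points are arrays (red siRNA 3488, blue siRNA 2600, grey scrambled control) and bars are group means; the siRNA 3488 points of Fstl1, Ccn1 and Ccn2 lie above all control points, and the siRNA 2600 points of Inhba lie near 1.06.

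Of the 2 activin beta subunit genes, Inhba was called higher with siRNA 2600 and Inhbb lower with siRNA 3488. Each gene changed in the same direction with both siRNAs. Inhba probe set 1383486_at read 412 and 378 with siRNA 3488, 719 and 669 with siRNA 2600, against 357, 339.5 and 304 in the control. Both siRNA groups lay above the control without overlap, and the siRNA 2600 arrays were the highest. The mean was 694 ± 35.0 (SD, n = 2) with siRNA 2600 against 333 ± 27.2 (SD, n = 3), a log2 change of 1.06 ± 0.11 with a limma adjusted p of 0.00486. This held in 17 of 18 alternatives and was lost with no intensity trend, at 0.0814. The change with siRNA 3488 was 0.25 ± 0.11 and was not called, at an adjusted p of 0.161. A dimmer Inhba probe set, 1369012_at, read 106 and 107, then 107 and 168, against 88.8, 75.2 and 105. It had the same order of groups and was not called with siRNA 2600, at 0.60 ± 0.27 and an adjusted p of 0.321.

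Inhbb probe set 1377163_at read 227 and 187 with siRNA 3488, 303 and 303 with siRNA 2600, against 429, 358 and 390.3 in the control. The 3 groups did not overlap, and siRNA 3488 was the lowest. Its log2 signal fell by 0.92 ± 0.14 with siRNA 3488 (limma adjusted p 0.00436), and this call held in all 18 alternatives run, array omissions included. The siRNA 2600 difference was -0.37 ± 0.14, adjusted p 0.243. The difference between the siRNAs was -0.56 ± 0.15 and just missed the threshold at an adjusted p of 0.0586. Inha, whose product pairs with either beta subunit to make inhibin, an activin opponent, read 205 and 209, 187 and 159.7, and 168, 179 and 157. Both siRNA 3488 values lay above the control and the change, 0.30 ± 0.16, was not called at an adjusted p of 0.236.

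The other ligands were not called in any of the 4 comparisons under the settings as reported. Tgfb1, the main TGF-beta of injured kidney, read 258 and 207 with siRNA 3488, 287 and 208 with siRNA 2600, against 255, 352 and 345 in the control. Its groups overlapped, and its changes of -0.44 ± 0.20 and -0.36 ± 0.20 had limma adjusted p values of 0.153 and 0.426. Tgfb2 probe set 1387172_a_at lay between 656 and 835 over the 7 arrays, and Tgfb3 between 5591 and 6573. Bmp4, a BMP of the developing kidney, read 1543 and 1589.6 with siRNA 3488, 1337 and 1264 with siRNA 2600, against 1416, 1391 and 1338 in the control. Relative to the control, siRNA 3488 lay above and siRNA 2600 below, and the difference between the siRNAs, 0.27 ± 0.07, had an adjusted p of 0.0627 (0.0445 in the upper 40% of probe sets and 0.0408 with 1 probe set per gene, both called). Bmp2 probe set 1398270_at read 474 and 416 with siRNA 3488 against 530.3, 531 and 490.1, with siRNA 2600 at 521 and 489.6. Only the siRNA 3488 arrays lay below the control, at -0.22 ± 0.10 and an adjusted p of 0.174. Bmp6 probe set 1388920_at lay between 315 and 445, with the siRNA 3488 arrays, at 445 and 414, above the control, at an adjusted p of 0.205.

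Among the latent binding proteins, Ltbp1, which ties latent TGF-beta to the matrix, rose with siRNA 3488. It read 2516 and 2287 with siRNA 3488, 1995 and 2047 with siRNA 2600, against 1936, 2000.4 and 2090.4 in the control. Cultures given siRNA 3488 were above all others, and those given siRNA 2600 lay within the control range. The change was 0.26 ± 0.07 with a limma adjusted p of 0.0333. This call rested on every array of the groups compared: the adjusted p was 0.156 and 0.0658 without siRNA 3488 replicate 1 or 2, and 0.12, 0.0991 and 0.0544 without control replicate 1, 2 or 3. It was 0.0517 after quantile normalization, 0.06 after cyclic loess and 0.0528 with no filter. Ltbp2, a matrix protein of the same family that does not bind latent TGF-beta, read 74.0 and 244, 104 and 139, and 36.2, 93.9 and 48.6. Its changes were the largest positive ones of any tested member with siRNA 3488, at 1.29 ± 0.51, and with siRNA 2600, at 1.14 ± 0.51, and neither was called, at adjusted p values of 0.114 and 0.331. Without siRNA 3488 replicate 1, Ltbp2 was called with siRNA 3488, at 2.15 and 0.0258 from the 1 remaining array. Ltbp3 lay between 4094 and 4949 on all 7 arrays.

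Fstl1 encodes a secreted glycoprotein of the follistatin family that can bind BMP4. Probe set 1368822_at read 13095 and 13678 with siRNA 3488, 9866 and 10767 with siRNA 2600, against 9314, 8955 and 8948 in the control. The 3 groups did not overlap, with siRNA 3488 the highest and the control the lowest. The mean was 13387 ± 412 (SD, n = 2) with siRNA 3488 against 9072 ± 209 (SD, n = 3), a log2 change of 0.56 ± 0.06 with a limma adjusted p of 0.00178. The call held in all 18 alternatives run, but the change was 0.22 under quantile normalization (0.029) and 0.31 under cyclic loess (0.00818). Probe set 1371331_at read 10209 and 10494, 8668 and 8439, and 7696, 8040.3 and 7890.5, again without overlap. It rose by 0.39 ± 0.06 on the log2 scale with siRNA 3488 (limma adjusted p 0.00375), a call lost in 1 alternative, quantile normalization, at 0.10 and 0.217, and smaller under cyclic loess, at 0.17 and 0.0363. The third, 1368821_at, read 5033 and 5573, 5682 and 4976, and 4775, 4707 and 4844. It was not called, at 0.15 ± 0.07, adjusted p 0.193, and its siRNA 3488 change turned to -0.01 under quantile normalization.

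Fst, the follistatin that captures activins, had probe sets that disagreed. Probe set 1387843_at read 996 and 1027, 989.7 and 1100.1, and 939.99, 981 and 906, with all 4 siRNA arrays above the control. Probe set 1372750_at read 702 and 691, 687 and 702, and 833, 719 and 712, with all 4 siRNA arrays below it. No change of either passed the limma test, and with both siRNAs they were 0.13 ± 0.07 (adjusted p 0.385) and -0.11 ± 0.08 (adjusted p 0.482).

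Of the 10 tested receptor probe sets, 1 was called with siRNA 2600, 10% beside 1.03% of all. The same probe set was called between the siRNAs, 10% beside 6.01% of all. Amhr2, the type II receptor for anti-Müllerian hormone, read 108 and 127 with siRNA 3488, 41.9 and 26.2 with siRNA 2600, against 141, 109.5 and 101 in the control. Only the siRNA 2600 arrays were low, and they did not overlap either other group. The log2 signal fell by 1.81 ± 0.30 with siRNA 2600 (limma adjusted p 0.0258), and siRNA 3488 differed from the control by 0.01 ± 0.30. The probe set lies among the dimmest 10% of those tested. Raising all signals to at least the level of the filter left a change of -0.76 at an adjusted p of 0.12. Leaving out siRNA 2600 replicate 2 ended the call (-1.47, adjusted p 0.0823), as did leaving out control replicate 1, 2 or 3 (0.118, 0.112 and 0.0865).

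The type I receptors were not called. Tgfbr1, the type I receptor for TGF-beta, read 1128 and 965 with siRNA 3488, 1315 and 1130.1 with siRNA 2600, against 1193, 1154 and 1219.8 in the control on probe set 1376636_at. Both siRNA 3488 values lay below the others, and the change of -0.19 ± 0.09 had a limma adjusted p of 0.198. Bmpr1a, a BMP type I receptor, lay between 983 and 1537, with the siRNA 2600 arrays the highest at 1289.98 and 1537. Acvr1, which serves BMPs and activins, lay between 748 and 989.99 on probe set 1379217_at. Among type II receptors, Bmpr2 read 410.5 and 243, 592 and 437, and 596, 458 and 382 on 1376843_at, with siRNA 3488 below siRNA 2600 and overlapping the control. Its change with siRNA 3488 was -0.58 ± 0.24, adjusted p 0.129, and -0.95 and called (0.0378) without siRNA 3488 replicate 1. Acvr2a, an activin type II receptor, read 277 and 305, 241 and 197, and 265, 199.7 and 166. Its siRNA 3488 arrays were the highest, at 0.50 ± 0.20 and an adjusted p of 0.121. Tgfbr3, the co-receptor betaglycan, lay between 103 and 195, and its groups overlapped.

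Among the Smads, 16 probe sets of 7 genes were tested, and none was called against the control with either siRNA under the settings as reported, though probe sets of Smad5 and Smad6 were under some alternatives. With siRNA 3488, 14 of 16 lay below 0, beside 10937 of all 18625 tested probe sets. After quantile normalization, median centring and cyclic loess, 12, 11 and 12 of the Smad probe sets did. Their median was -0.17 beside -0.06 for all tested probe sets. Under those scalings it was -0.06 to -0.07, beside -0.02, 0.03 and -0.01 for all in that order. With siRNA 2600, 12 of 16 lay below 0 (11 under each of those 3 scalings), beside 10148 of all 18625. The median was -0.14 beside -0.02. At an unadjusted p under 0.05, 4 of the 16 passed with siRNA 3488 (25% beside 31.9% of all tested probe sets) and 6 with siRNA 2600 (37.5% beside 15.2%). The 6 with siRNA 2600 ran in both directions. Smad5 1369276_at (0.68), Smad5 1390373_at (0.60) and Smad2 (0.22) were higher. Smad6 1375121_at (-0.53), Smad6 1394025_at (-0.35) and Smad5 1388524_at (-0.27) were lower.

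Smad5, a BMP receptor Smad, was measured by 4 probe sets that did not behave alike. Probe set 1390373_at read 581 and 728 with siRNA 3488, 1254 and 1274 with siRNA 2600, against 821, 954 and 742 in the control. The siRNA 3488 arrays lay below the control and the siRNA 2600 arrays above it, without overlap. The difference of the siRNAs was -0.96 ± 0.13 (limma adjusted p 0.00956). Against the control, siRNA 2600 was at 0.60 ± 0.12 and just missed the threshold at an adjusted p of 0.0523, and siRNA 3488 was at -0.36 ± 0.12, adjusted p 0.0731. The siRNA 2600 difference passed after quantile normalization (0.62, 0.0488) and median centring (0.68, 0.0297), among the upper 40% (0.0444), with an offset of 32 (0.0487), with signals raised to the filter level (0.0454), from the compared arrays alone (0.0443), and without siRNA 3488 replicate 1 or 2 (0.0465 and 0.0472). Probe set 1369276_at read 211 and 210.5, 328 and 392, and 226, 209.5 and 235. Only the siRNA 2600 arrays stood out, as the highest, with a siRNA difference of -0.77 ± 0.15 (limma adjusted p 0.0243) and 0.68 ± 0.14 against the control (0.0527). The latter passed after quantile normalization (0.73, 0.0334), median centring (0.77, 0.0251) and cyclic loess (0.74, 0.0337). The difference between the siRNAs was lost without siRNA 3488 replicate 2 (0.102), siRNA 2600 replicate 1 or 2 (0.0606 and 0.0644) or control replicate 2 (0.05).

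The other Smad5 probe sets had lower siRNA 2600 signals. Probe set 1388524_at read 1173 and 1128, 1029 and 961, and 1189, 1179.7 and 1233, and 1378255_at read 330.1 and 212, 266 and 229, and 315, 318 and 318. In both, the siRNA 2600 arrays lay below the control. Their changes with siRNA 2600 were -0.27 ± 0.07 (limma adjusted p 0.116) and -0.36 ± 0.18 (0.385), and their differences between the siRNAs were 0.21 and 0.10, not called. Without siRNA 3488 replicate 1, 1378255_at was called with siRNA 3488, at -0.58 and 0.0474. The direction of Smad5 with siRNA 2600 therefore depends on the probe set, and which parts of the transcript each probe set reads is not analysed here.

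**Figure D2:**
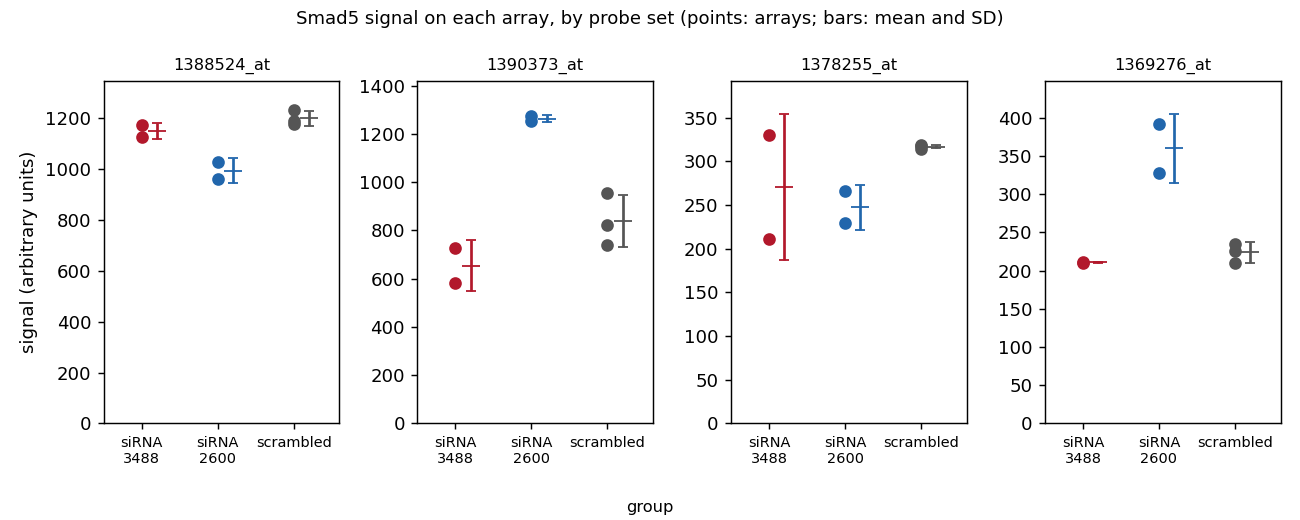
Smad5 signal in arbitrary units on each array, 1 panel per probe set, for siRNA 3488 (red), siRNA 2600 (blue) and scrambled control (grey); points are arrays, bars mean and SD, and each axis starts at 0. The siRNA 2600 arrays are the highest for 1390373_at (1254 and 1274) and 1369276_at, and below the control for 1388524_at and 1378255_at.

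Smad6, an inhibitory Smad of the BMP branch, read 513 and 564 with siRNA 3488, 564 and 525 with siRNA 2600, against 742, 604 and 743 in the control on probe set 1394025_at. All 4 siRNA arrays lay below the control. Its changes, -0.37 ± 0.11 and -0.35 ± 0.11, were not called, at limma adjusted p values of 0.0546 and 0.183. With siRNA 3488 it was called without siRNA 2600 replicate 1 or 2 (0.0487 and 0.0478) or control replicate 2 (-0.46, 0.0394), in the upper 40% (0.0477), with 1 probe set per gene (0.0404) and on the compared arrays alone (0.0472). A further Smad6 probe set, 1375121_at, had changes of -0.20 ± 0.14 and -0.53 ± 0.14, not called. Smad7, the inhibitory Smad that TGF-beta induces, read 935 and 944, 901 and 889, and 1046, 1030.1 and 939 on 1368896_at. The siRNA 2600 arrays lay below the control, at -0.17 ± 0.08 and an adjusted p of 0.357.

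Smad1, the other BMP receptor Smad measured, read 1059.7 and 907, 1081 and 1033, and 1179, 1163 and 1123 on 1389373_at. All 4 siRNA arrays were below the control, at -0.24 ± 0.08 with siRNA 3488 and a limma adjusted p of 0.0833. Smad2, a TGF-beta receptor Smad, read 905 and 845, 1108 and 1016, and 924, 882 and 921. The siRNA 2600 arrays were the highest, at 0.22 ± 0.08 and an adjusted p of 0.22. Its partner Smad3 lay between 761 and 916 on 1389127_at, and Smad4, the shared partner, between 2017 and 2408 on 1386984_at. No change of Smad2, Smad3 or Smad4 was called. The nuclear corepressors were not called either. Skil, which holds Smad targets silent, lay between 6266 and 7768, and Tgif1, a homeodomain repressor of Smad targets, between 1594 and 2169. Without siRNA 3488 replicate 2, Tgif1 was called with siRNA 3488, at 0.41 and 0.0458.

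The Id genes encode helix-loop-helix proteins that lack a DNA-binding region and block other helix-loop-helix factors, and they are direct targets of BMP signals. With siRNA 3488, 2 of 5 tested Id probe sets were called higher, 5 of 5 had changes above 0 (3, 5 and 4 after quantile normalization, median centring and cyclic loess), and none was called with siRNA 2600. Of all tested probe sets, 6.89% were called higher with siRNA 3488 and 41.3% had changes above 0, and of the brightest 10%, where both called Id probe sets lie, 37.4% were called higher. Id1 read 10976 and 11685 with siRNA 3488, 10029.7 and 10500.3 with siRNA 2600, against 8945, 9341 and 9429.6 in the control. The 3 groups did not overlap and siRNA 3488 was the highest. Id1 rose by 0.29 ± 0.06 on the log2 scale (limma adjusted p 0.0124), a call that turned to -0.03 (0.567) under quantile normalization and fell to 0.05 (0.421) under cyclic loess. It was also lost without siRNA 3488 replicate 2 (0.0776) or control replicate 1 (0.0565).

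Id2 probe set 1375532_at read 11149.7 and 13001 with siRNA 3488, 4426 and 11884 with siRNA 2600, against 4744, 4859.6 and 7362 in the control. Both siRNA 3488 arrays lay above the control, and the siRNA 2600 cultures were split, with replicate 2 near siRNA 3488 and replicate 1 below every control. The change with siRNA 3488 was 1.12 ± 0.33 (limma adjusted p 0.0451). The call was lost without siRNA 3488 replicate 1 or 2 (0.104 and 0.227) or control replicate 1 or 2 (0.138 and 0.12), after quantile normalization (0.131) or cyclic loess (0.0929), and with no filter (0.086). Without siRNA 2600 replicate 1 its adjusted p was 0.00342, and Id2 was then called with siRNA 2600 too, at 1.10 and 0.0424 from 1 remaining array that is assumed to vary like the others. A dimmer Id2 probe set, 1368870_at, read 1655 and 1506, 1442 and 1454, and 1479, 1233 and 1422. Its siRNA 3488 arrays lay above the control, at 0.20 ± 0.09 and an adjusted p of 0.15, a smaller difference than on the first.

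Id3 read 14042 and 15649, 13104 and 14422, and 11964, 13276 and 13118. The siRNA 3488 arrays were above the control, at 0.21 ± 0.08 with a limma adjusted p of 0.0833. Its direction depended on the scaling: it was called higher after median centring, at 0.31 and 0.035, and called lower after quantile normalization, at -0.16 and 0.019. Id4 lay between 143 and 178 on its 1 tested probe set, 1394022_at, and was not called.

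Ccn1 and Ccn2 encode secreted matrix-associated proteins, and both genes respond to TGF-beta and to the YAP and TEAD factors. Both were called higher with siRNA 3488, as were 6.89% of all tested probe sets and 37.4% of the brightest 10%, where both lie. Ccn1 read 8224 and 7457 with siRNA 3488, 4054 and 6843 with siRNA 2600, against 3823, 3889 and 5166 in the control. Again siRNA 3488 was the highest, and siRNA 2600 was split as for Id2, with replicate 1 within the control range and replicate 2 above it. The change with siRNA 3488 was 0.88 ± 0.19 (limma adjusted p 0.0145). The adjusted p was 0.0712 and 0.0811 without siRNA 3488 replicate 1 or 2, 0.0617 and 0.0512 without control replicate 1 or 2, and 0.00258 without siRNA 2600 replicate 1. After quantile normalization it was 0.0523, and after cyclic loess 0.0379.

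Ccn2 read 16799 and 16519 with siRNA 3488, 11753 and 12307 with siRNA 2600, against 13079, 12702 and 13579 in the control. The siRNA 3488 arrays lay above the control and the siRNA 2600 arrays below it. Ccn2 rose by 0.35 ± 0.06 on the log2 scale with siRNA 3488 (limma adjusted p 0.0069), and its change with siRNA 2600 was -0.12 ± 0.06, adjusted p 0.36. The rise turned to -0.05 (0.648) under quantile normalization and to 0.06 (0.521) under cyclic loess.

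Promoters are shown for Ccn2, Ccn1 and Id1, target genes called higher with siRNA 3488 under the deposited scaling. After quantile normalization Ccn2 and Id1 were at -0.05 and -0.03, while Ccn1 was at 0.67. The promoter of Id2, also called, is not printed. They run from 250 bases before to 50 after the gene start, from RefSeq on build GRCr8, where 37 members had one. Capitals mark the Smad box CAGAC, the TEAD core GGAATG, the GC-rich Smad element GGCGCC (each searched on both strands) and the TATA box TATAAA (gene strand), and none of these matches overlap. Ccn2 lies at chr1:22624565-22624864, Ccn1 at chr2:237225640-237225939, both on the minus strand, and Id1 at chr3:161671314-161671613 on the plus strand.
Ccn2: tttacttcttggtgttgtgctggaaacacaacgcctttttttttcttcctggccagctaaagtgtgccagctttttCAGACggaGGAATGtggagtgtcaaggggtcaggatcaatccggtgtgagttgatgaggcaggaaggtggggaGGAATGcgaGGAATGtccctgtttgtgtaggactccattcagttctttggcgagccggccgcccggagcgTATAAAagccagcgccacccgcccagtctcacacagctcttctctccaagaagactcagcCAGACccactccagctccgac
Ccn1: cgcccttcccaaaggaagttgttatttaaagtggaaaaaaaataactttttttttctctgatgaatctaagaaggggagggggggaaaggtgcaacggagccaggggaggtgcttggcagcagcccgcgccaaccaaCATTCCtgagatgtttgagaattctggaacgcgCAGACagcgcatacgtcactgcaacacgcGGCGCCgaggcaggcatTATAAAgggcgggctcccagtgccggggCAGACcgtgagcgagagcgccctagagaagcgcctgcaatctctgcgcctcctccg
Id1: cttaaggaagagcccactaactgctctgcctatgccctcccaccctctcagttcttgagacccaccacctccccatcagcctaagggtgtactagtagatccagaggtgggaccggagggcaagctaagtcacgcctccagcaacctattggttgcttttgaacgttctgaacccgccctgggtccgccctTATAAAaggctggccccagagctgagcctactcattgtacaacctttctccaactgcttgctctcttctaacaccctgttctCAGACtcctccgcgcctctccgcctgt

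The Ccn2 window held 3 TEAD cores, which start 166, 101 and 92 bases before the gene start, and 2 Smad boxes, 174 before it and 30 after. The Ccn1 window held 1 TEAD core on the other strand, seen as CATTCC, 113 bases before the start, 2 Smad boxes and 1 GC-rich Smad element. Id1 had 1 Smad box, 24 bases after the start, and the Id2 window held none of the 4 motifs. Of 33469 promoters of this length, 50.1% held the Smad box, 14.2% the TEAD core, 11% the GC-rich element and 8.8% the TATA box. Of the 37 member promoters these were 32.4%, 10.8%, 37.8% and 13.5%. A match is a description of the letters only.

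**Figure D3:**
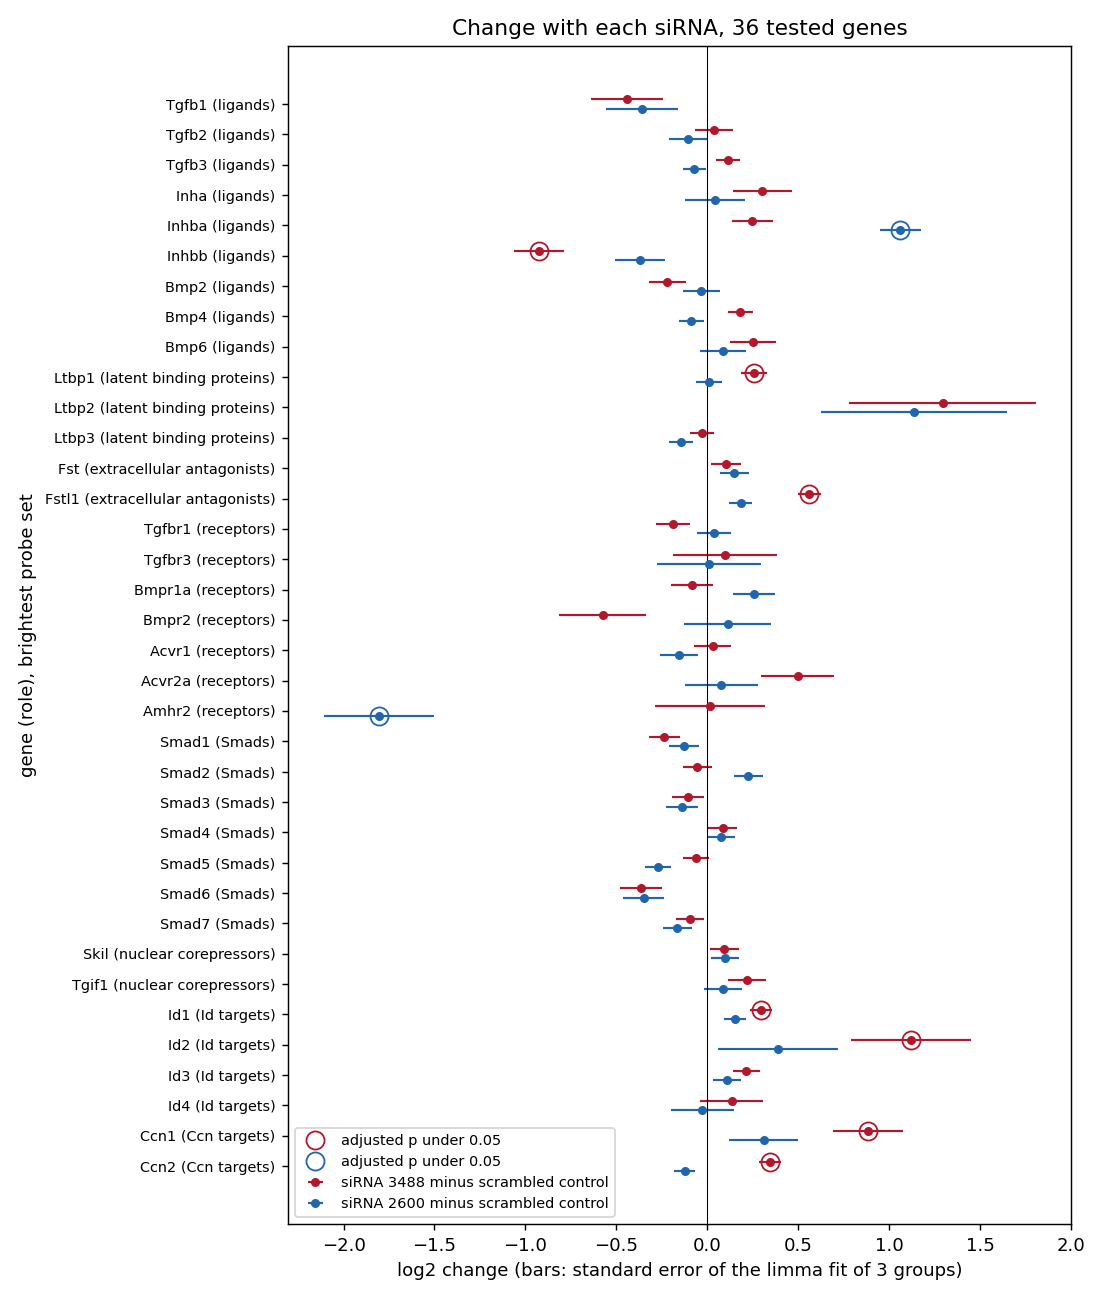
Log2 change against the scrambled control with its standard error for the brightest probe set of each of the 36 tested genes, red for siRNA 3488 and blue for siRNA 2600, with circles where the limma adjusted p was under 0.05. Inhba (1.06, blue) and Inhbb (-0.92, red) stand apart among the ligands, Amhr2 (-1.81, blue) among the receptors, and the Id and Ccn genes lie to the right of 0 with siRNA 3488.

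The members called higher with siRNA 3488 were among the brighter probe sets. Of the 7 called higher, 6 (both Fstl1 probe sets, Id1, Id2, Ccn1 and Ccn2) lie among the brightest 10% of tested probe sets, which hold 11 of the 56 members. In that brightest group the median change of all probe sets with siRNA 3488 was 0.15 and 37.4% were called higher, while the medians of the other 9 groups of equal size by signal lay between -0.13 and -0.04. The part of this signal dependence in the member calls was not tested. After quantile normalization, 3 members were called with siRNA 3488, 1 higher (Fstl1) and 2 lower (Inhbb and Id3), and after cyclic loess 4, with 3 higher and 1 lower. These were 5.36% and 7.14% of members, beside 9.86% and 10.4% of all probe sets. After median centring 8 were higher and 1 lower, beside 1728 higher and 579 lower of all probe sets, where the scaling as deposited gave 1283 and 1628. The count was 4 without control replicate 1 and 5 without siRNA 3488 replicate 2. With no intensity trend in the fit it was 3 (both Fstl1 probe sets and Inhbb), and 0 for siRNA 2600 and between the siRNAs.

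**Figure D4:**
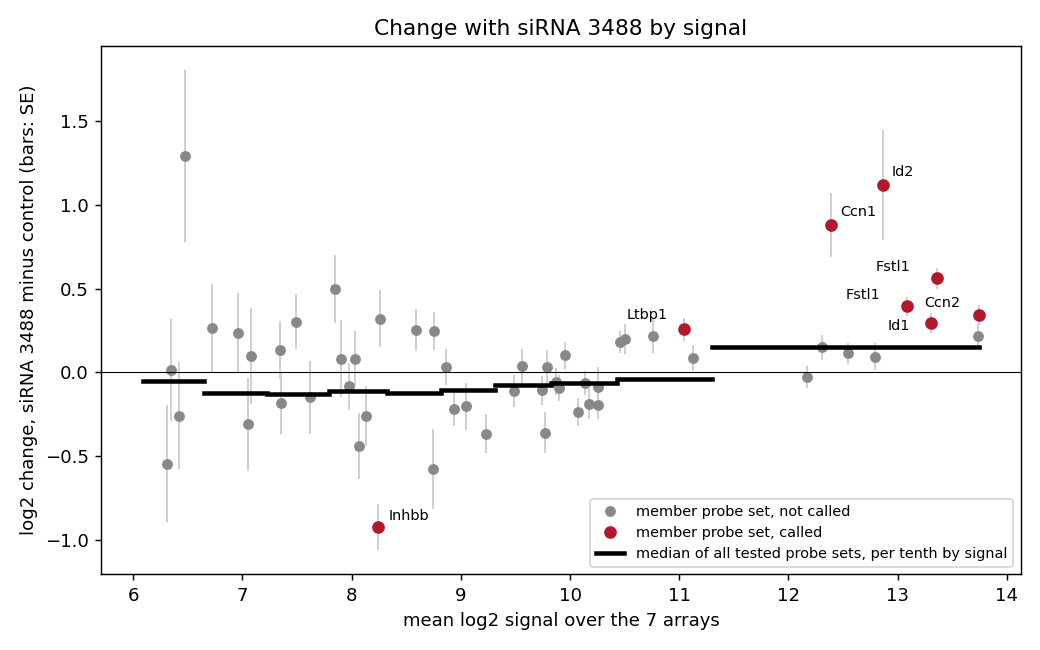
Log2 change with siRNA 3488 against mean log2 signal over the 7 arrays for the 56 tested member probe sets; bars are standard errors, red points called, and black steps the median change of all tested probe sets in each of 10 groups of equal size by signal. The black step rises from at most -0.04 to 0.15 in the brightest group, where all called members other than Ltbp1 and Inhbb lie.

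When both siRNAs were set against the control, differences between them stayed in the spread. Of the 12 probe sets whose 4 siRNA arrays did not overlap the control, 7 lay above it (both Inhba probe sets, the 3 Fstl1 probe sets, Fst 1387843_at and Id1) and 5 below (Inhbb, Smad6 1394025_at, Smad1 1389373_at, Smad5 1388524_at and Fst 1372750_at). The limma adjusted p was 0.173 for Inhba 1383486_at at 0.65 ± 0.22, 0.152 for Fstl1 1368822_at at 0.37 ± 0.11 and 0.135 for Inhbb at -0.65 ± 0.18. When the mean of both siRNA effects was taken in the fit of 3 groups, 6 members were called, 10.7% against 7.4% of all probe sets: Inhba (0.65, adjusted p 0.00867), 2 of Fstl1 (0.37 and 0.26, 0.00771 and 0.0166) and Id1 (0.22, 0.0333) higher, and Inhbb (-0.65, 0.0158) and Smad6 (-0.36, 0.0492) lower. Without siRNA 2600 replicate 1, the fit of 2 groups called 4: Id2 (1.11, 0.00428), Ccn1 (0.82, 0.00641) and Fstl1 (0.46, 0.0247) higher, and Inhbb (-0.74, 0.0329) lower.

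Set directly against each other, the siRNAs differed in 5 member genes. Amhr2 was higher with siRNA 3488 by 1.82 ± 0.33 (limma adjusted p 0.0176), Ccn2 by 0.47 ± 0.07 (0.00956), and Fstl1 by 0.38 ± 0.07 and 0.28 ± 0.06 on its probe sets (0.0176 and 0.0342). The Amhr2 difference fell to 0.78 with signals raised to the filter level. It was not called there, nor when fitted on the compared arrays alone. After quantile normalization the differences of Ccn2 (0.15, 0.216) and of both Fstl1 probe sets (0.09 and 0.04, 0.371 and 0.685) were not called, and after cyclic loess Ccn2 was at 0.25 (0.046) and Fstl1 at 0.19 and 0.11 (0.0936 and 0.216, not called). Median centring ended the call of Fstl1 1371331_at (0.28, 0.087). Inhba was lower by 0.81 ± 0.12 on the log2 scale (0.011), as were the Smad5 probe sets 1390373_at and 1369276_at. Of Inhbb, called against the control with siRNA 3488 only, and of Id1, Id2, Ccn1 and Ltbp1, the differences between the siRNAs were not called, at adjusted p values of 0.0586, 0.229, 0.25, 0.133 and 0.0846. Without siRNA 2600 replicate 2, Id2 (1.44, 0.0103) and Ccn1 (0.95, 0.014) were called between the siRNAs, and without siRNA 3488 replicate 1 Inhbb was (-0.70, 0.0465; also in the upper 40%, 0.0437, and with 1 probe set per gene, 0.0427), as was Bmpr1a (-0.52, 0.0485). Without siRNA 3488 replicate 2, 2 members were called (Ccn2 and Smad5), and without siRNA 2600 replicate 1, also 2 (Amhr2 and Smad5 1390373_at). In the latter the adjusted p was 0.0588 for Ccn2, 0.112 for Fstl1 1368822_at and 0.0601 for Inhba, and in the former 0.103 for Amhr2, 0.0848 for that Fstl1 probe set and 0.0689 for Inhba. Fstl1 1371331_at was also lost without siRNA 2600 replicate 2 (0.0758) and without control replicate 1, 2 or 3 (0.0638, 0.0748 and 0.0679). Scaling changed the split from 4 higher and 3 lower to 1 and 4 after quantile normalization, 2 and 3 after cyclic loess, and 3 and 3 after median centring. In that order, 8.93%, 8.93% and 10.7% of members were called, beside 3.08%, 3.73% and 3.96% of all.

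Of the other genes of the pathway, 48 were tested on 66 probe sets. With siRNA 3488, 12 of the 66 were called, 18.2% beside 15.6% of all, 9 higher (13.6% beside 6.89%) and 3 lower (4.55% beside 8.74%). They include fibronectin, Fn1, a matrix target of TGF-beta (0.49 ± 0.06, limma adjusted p 0.00223), the proteoglycan Bgn (0.46 ± 0.06, 0.00282) and Fkbp1a, whose product binds type I receptors (0.58 ± 0.09, 0.00446). Col1a1 rose on both probe sets, by 0.41 ± 0.07 (0.00681) and 0.44 ± 0.08 (0.00795), and so did Bambi, a decoy receptor, by 0.42 ± 0.08 (0.00857). Fn1 read 4276 and 4587 with siRNA 3488, 3413 and 3359.9 with siRNA 2600, against 3126, 3144 and 3193 in the control. All siRNA 3488 arrays were above all others. Col1a1 is also one of the fibroblast markers summed above. Fn1 and the brighter Col1a1 probe set lie among the brightest 10% of tested probe sets, of which 37.4% were called higher with siRNA 3488. The values of these genes under other scalings are not given here. Only the 6 with the lowest p are named, and the 3 called lower are not among them. The count of called probe sets was 4 without siRNA 3488 replicate 2 and 6 without control replicate 1.

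With siRNA 2600, 0 of the 66 were called by limma, with 12 (18.2%, beside 15.2% of all) at an unadjusted p under 0.05, and with both siRNAs 0, with 11 (16.7%, beside 17.8%). Between the siRNAs, 6 were called, 9.09% beside 6.01% of all. Fkbp1a (0.64 ± 0.10, limma adjusted p 0.0112), Fn1 (0.39 ± 0.07, 0.0144), Pmepa1, a TGF-beta-induced inhibitor (0.47 ± 0.09, 0.0232), and Cdkn1a, a cell cycle inhibitor (0.31 ± 0.07, 0.038), were higher with siRNA 3488. Junb (-0.50 ± 0.08, 0.0115) and Klf10 (-0.29 ± 0.06, 0.0344), immediate targets of TGF-beta, were lower. The count was 0 without siRNA 3488 replicate 2 and 1 without siRNA 2600 replicate 1.

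Members below the filter have no test. Every probe set of Gdf15, a distant family ligand induced by stress, of Fstl3, an activin antagonist, and of Grem1, a BMP antagonist, lay below it, and 13 member probe sets did in all. Gdf15 lay between 2.5 and 39.5, Grem1 between 4.14 and 19.4, and Fstl3 between 3.28 and 57.4 over its 2 probe sets. These signals are near the floor of the arrays and their groups are not ordered here.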

How the data were processed

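RNA of 7 cultures was hybridised to 1 array each. The authors deposited linear intensity values from GCOS 1.4, per the submitters' processing notes; how GCOS was set (background, summary, scaling) is not given in the sources used here. Values below 1 were raised to 1 before log2, and the deposited scaling was kept. Of 31042 probe sets that are not controls, the upper 60% by mean log2 signal, 18625, were tested with limma 3.58.1 in R 4.3.3 (intensity trend, Benjamini-Hochberg over all tested). Both siRNAs against the control is a fit of 2 groups; all other comparisons come from a fit of 3 groups over the 7 arrays. The members and gene lists were chosen with earlier results of these data known, so lists carry counts and medians, with no test. Each called probe set (at most the 12 with the lowest p per comparison) and the brightest probe set of each gene were described, by array or by range; of other pathway genes, at most the 6 called with the lowest p. Genes were named from the platform annotation; all 69 member probe sets were found in the GRCr8 gene table and 0 symbols changed. The fits were tested on simulated data. Replicate numbers were not taken as pairs. No array was identical to another. The few arrays limit the precision of every value. Alternatives were quantile normalization, median centring, cyclic loess, no filter, the upper 40%, an offset of 32, 1 probe set per gene, no intensity trend, the replicate block, other sets of arrays and leaving out each array; raising signals to the filter level was added after seeing the data.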

Additional observations from a re-analysis of the deposited data

Results flagged for a closer look

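For 7 member probe sets the effects of the 2 siRNAs differed by a test of the difference itself, limma's contrast of siRNA 3488 against siRNA 2600 with Benjamini-Hochberg adjustment. The log2 differences, siRNA 3488 minus siRNA 2600, were 1.82 for Amhr2, 0.47 for Ccn2, 0.38 for Fstl1 1368822_at and 0.28 for Fstl1 1371331_at, and -0.96 for Smad5 1390373_at, -0.81 for Inhba 1383486_at and -0.77 for Smad5 1369276_at. With signals raised to the filter level the Amhr2 difference was 0.78 and not called. For Ccn2 and Smad5 1390373_at the arrays of the siRNAs lay on opposite sides of the control under the deposited scaling. After quantile normalization both siRNA changes of Ccn2 lay below the control, at -0.05 and -0.20, and the differences between the siRNAs of Ccn2 (0.15, adjusted p 0.216) and Fstl1 (0.09 and 0.04, 0.371 and 0.685) were not called. Groups of 2 and 3 arrays are too small to look for single arrays that stand apart.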

How the results depend on the processing

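Where a value changed with the scaling or the fit, the cause was not tested. Of all tested probe sets, 9.86% were called with siRNA 3488 after quantile normalization and 10.4% after cyclic loess, beside 5.36% and 7.14% of members. With siRNA 2600, 1.42% were called after quantile normalization and 1.11% after median centring, beside 7.14% of members in each. Members called with siRNA 3488 (8) were 3 after quantile normalization, 4 after cyclic loess and 3 with no intensity trend, and 4 to 9 with 1 array left out. With siRNA 2600 (2) they were 4 after quantile normalization or median centring, 1 with no filter, 0 with no intensity trend, and 1 to 3 with 1 array left out. Between the siRNAs (7) they were 0 with no intensity trend, 1 when fitted on those 4 arrays alone, and 2 to 9 with 1 array left out. With both siRNAs (0) they were 6 from the mean of the 2 effects in the fit of 3 groups, and 0 to 4 with 1 array left out. Other pathway genes called were 3 (siRNA 3488) and 0 (between the siRNAs) with no intensity trend, 0 between the siRNAs on those 4 arrays, 6 with both siRNAs from the mean of effects, and with 1 array left out 4 to 12, 0 to 6 and 0 to 6. The median change of members with both siRNAs was 0.00781 after quantile normalization, 0.14 after median centring, 0.0211 after cyclic loess and 0.0791 in the upper 40%. With siRNA 3488 it was -0.00147 after quantile normalization, 0.15 after median centring and 0.0951 with 1 probe set per gene. With siRNA 2600 it was 0.0254, 0.0554 and 0.0318 under the 3 scalings in that order, 0.00928 in the upper 40% and 0.023 with 1 probe set per gene. Between the siRNAs it was 0.0499 after quantile normalization. With 1 array left out the medians were 0.0131 to 0.0564 (both), 0.0214 to 0.0742 (siRNA 3488), -0.0692 to 0.0200 (siRNA 2600) and 0.061 to 0.104 (between). Of the called changes, 2 turned sign, both under quantile normalization and with siRNA 3488: Ccn2 to -0.0465 and Id1 to -0.0337. Of changes not called as reported, Id3 turned with siRNA 3488 to -0.16 under quantile normalization and -0.07 under cyclic loess, and Fstl1 1368821_at to -0.01 under the former. With the replicate number as a block, 1 member was called with siRNA 2600 (Amhr2 was lost, limma adjusted p 0.0652), and the median there was -0.0574. With siRNA 3488 and between the siRNAs 11 and 8 were called. Bmpr2 was among them in both (limma adjusted p 0.0098 and 0.0184), and Smad5 1390373_at newly with siRNA 3488 (0.0219). Same-numbered arrays of different groups correlated between -0.05 and 0.16 in their deviations from the group means. In a group of 2 arrays these deviations mirror each other, so the correlations cannot decide whether equal numbers are pairs. The numbers were not taken as pairs. Among the 56, 11 changes with siRNA 3488 and 8 with siRNA 2600 had a different sign under at least 1 scaling.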

Other observations

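An Id4 probe set below the signal filter, chosen after its values were seen, had 3 groups that did not overlap. Id4 1375120_at read 82.0 and 84.7 with siRNA 3488, 35.8 and 37.5 with siRNA 2600, against 20.5, 20.9 and 20.7 in the control. The mean log2 signal of this probe set lies below the filter and its control signals are near the floor of the arrays, so no fold and no test are given. The other Id4 probe sets below the filter lay between 17.4 and 86.7 with groups that overlapped.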
